A study of Tursiops truncatus with 17 samples.

Results

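Histone chaperones are proteins that carry histones and place them on DNA or take them off. The 10 genes described here, of 21265 in the files, are CHAF1A and CHAF1B of chromatin assembly factor 1 (CAF-1), SUPT16H and SSRP1 of the FACT complex, SUPT6H, the paralogs ASF1A and ASF1B, and NASP, HIRA and NAP1L1. They were matched by gene name, each to 1 protein-coding row, and all 10 passed the filter on low values. The family was chosen by the season contrast of these same libraries: CHAF1A and SUPT16H ranked 8 and 15 by p among the 6815 tested genes that were lower in the bloom season, and the other members were added by function. Season differences of the members are therefore given as a description, without p-values, and are no independent evidence. The same holds for whether a member passed in any other fit below, since those fits reuse these libraries.

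The cortex came from 9 bottlenose dolphins (Tursiops truncatus) sampled in a bloom season, against 8 sampled in a non-bloom season. All were labelled wild type, all tissue was frozen archived necropsy cerebral cortex, and each dolphin gave 1 messenger RNA library. The labels state no age, sex, date or batch, and their treatment field holds only the season. Season and any factor left unstated cannot be told apart. Bloom is the word the labels use for a collection season, and dolphins are numbered within their season by accession order. Values are the deposited normalised values, which give reads relative to a scaled library size (a form of CPM). They compare 1 gene across dolphins, not genes with each other, since they are not divided by transcript length.

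In dividing cells CAF-1 receives new histone H3 and H4 from ASF1 and deposits them behind the replication fork, and HIRA places a replacement form of H3 outside replication, a route open to neurons, which no longer divide. FACT and SPT6 loosen and rebuild nucleosomes as RNA polymerase II passes, NASP guards the soluble pool of H3 and H4, and NAP1L1 handles H2A and H2B. Cerebral cortex is a mixture of neurons and glia, and in bulk tissue fewer cells of a type and less RNA per cell cannot be told apart.

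The libraries held 7680050 to 12572653 reads in the bloom group and 12346713 to 15635292 reads in the non-bloom group. Transcripts of the mitochondrial genome took 77.2%, 57.0% and 33.5% of the reads in bloom 9, bloom 5 and bloom 6, against 1.47% to 19.5% in the other 6 bloom libraries and 9.68% to 22.1% in the non-bloom libraries. These 3 libraries kept 1753299, 4039857 and 6719605 reads for genes outside the mitochondrial genome, fewer than any other library, and results are given with and without them. Pan-neuronal markers cannot tell cortex from other brain tissue, so the cortex label itself was not checked. Of 12 such markers 11 were in the files, and none was at 0 throughout a season. Their summed level was 2526 to 10862 in bloom libraries and 8853 to 14505 in non-bloom libraries. The sum of 9 oligodendrocyte markers was 4407 to 19137 in bloom and 1682 to 8018 in non-bloom libraries, and that of 9 astrocyte markers 1392 to 10057 and 1807 to 3302. For 8 markers of cycling cells the sum was 5.09 to 11.7 in bloom and 6.92 to 11.7 in non-bloom libraries, and the proliferation gene MKI67 averaged 0.0814 ± 0.110 (SD, n = 9) and 0.125 ± 0.101 (SD, n = 8), too low for the filter.

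Of the 10 members 3 fell in the bloom season, CHAF1A, SUPT16H and ASF1B, and none rose. The fit across all 13552 genes (limma-trend on log2(value + 1), Benjamini-Hochberg adjusted p under 0.05) called 9.16% of genes, 4.47% higher and 4.69% lower. Because this contrast chose the family, nothing is read from the members' share. The median log2 change was -0.05 over the members, of which 5 were negative and 5 positive, and -0.0034 over all genes tested. The groups did not fully separate for any member, while they separated for 0.657% of all genes tested. edgeR on the recovered reads called CHAF1A and SUPT16H lower, in a fit that called 2.55% of genes lower. DESeq2 called the same 3 members lower, in a fit that called 9.05% of genes lower. No other gene in the files overlapped the position of a member.

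**Figure D1:**
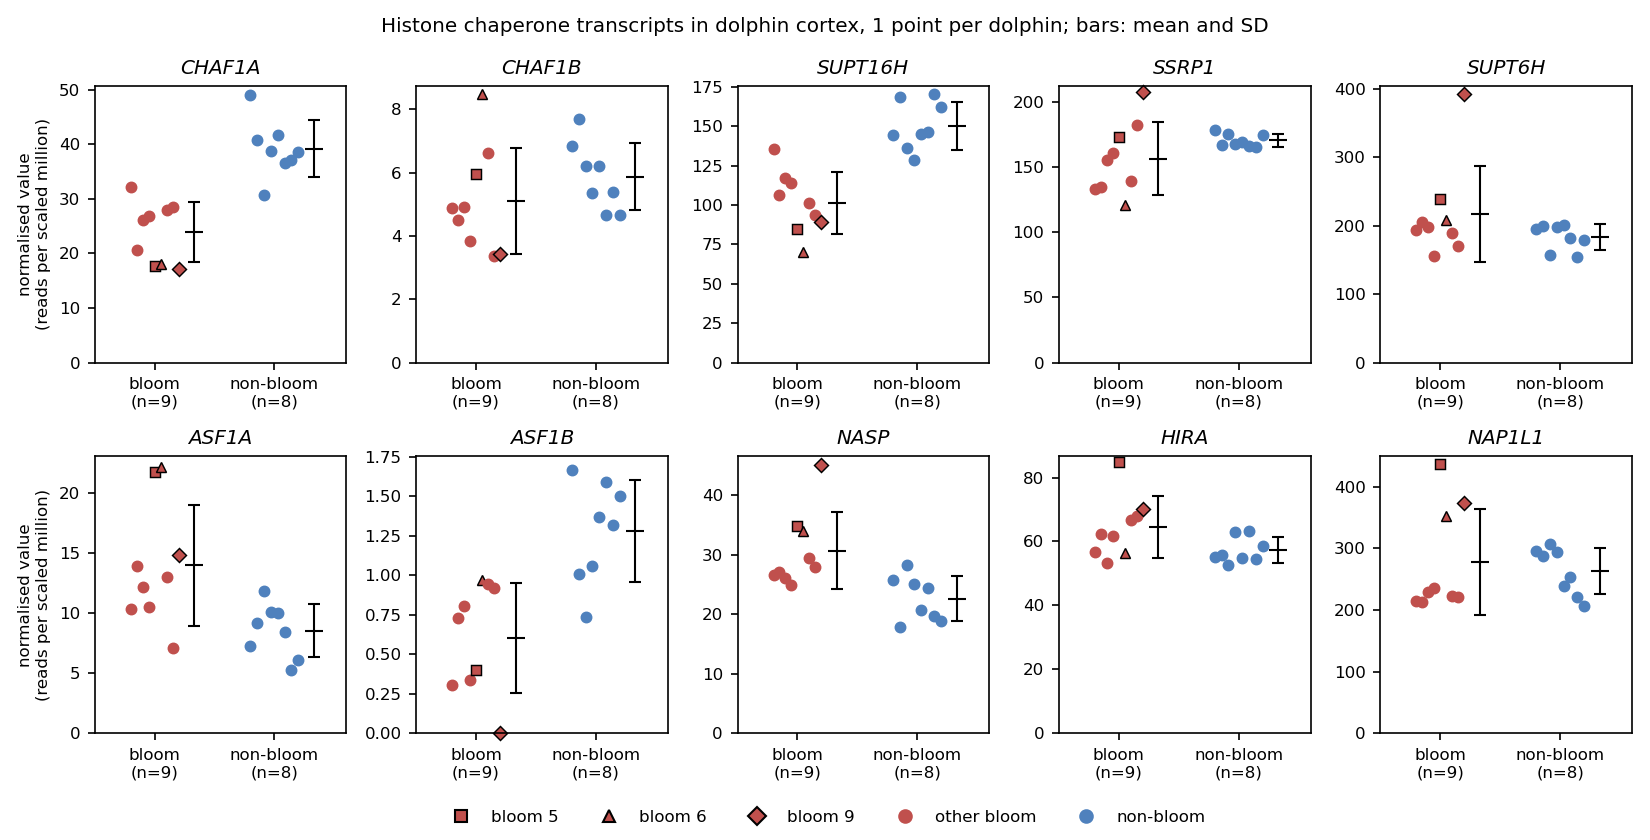
Normalised value of each histone chaperone gene (vertical axis, from 0) in the 9 bloom libraries and the 8 non-bloom libraries, 1 point per dolphin, with the group mean and SD beside the points. CHAF1A, SUPT16H and ASF1B lie lower in bloom libraries, and the square, triangle and diamond for bloom 5, 6 and 9 sit at the edge of the bloom range for CHAF1A, SUPT16H, NASP and NAP1L1.

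CHAF1A encodes the large subunit of CAF-1, which binds H3 and H4 and docks on the replication clamp. The gene (ENSTTRG00000001712) is placed on GeneScaffold_303 from 165228 to 190612, in a build that the labels do not name. It ran from 17.1 through a median of 26.1 to 32.2 in bloom dolphins, against 30.7 through 38.6 to 49.0 in non-bloom dolphins. The means were 23.9 ± 5.57 (SD, n = 9) and 39.1 ± 5.22 (SD, n = 8), a log2 change of -0.71 (SE 0.14). In 8 of the 9 bloom dolphins CHAF1A was below every non-bloom dolphin, and only bloom 1 reached into the non-bloom range. The lowest value, 17.1 in bloom 9, rests on 30 reads (95% exact binomial interval 11.6 to 24.5, counting error only). Without bloom 5, 6 and 9 the log2 change was -0.52 (SE 0.11) and passed, in a fit that called 0.659% of genes lower. That fit reuses libraries that chose CHAF1A, so the pass is no independent evidence. It did not pass without non-bloom 2, where the log2 change was -0.70 (SE 0.15). That fit called 61 genes in all, against 1241 with all 17 libraries.

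CHAF1B, the WD-repeat subunit that joins CHAF1A in the same complex, was measured on far fewer reads and did not pass. It ran from 3.36 through 4.87 to 8.48 in bloom dolphins and from 4.65 through 5.79 to 7.68 in non-bloom dolphins. The log2 change was -0.20 (SE 0.17), and the groups overlapped across most of their ranges. Within a library there were 5.15 ± 1.99 CHAF1A reads per CHAF1B read in bloom dolphins (SD, n = 9) and 6.79 ± 1.15 in non-bloom dolphins (SD, n = 8). The ratio was lowest in bloom 6 and bloom 5, at 2.13 and 2.97, and the highest ratio of the 17 libraries was also a bloom one, 8.49 in bloom 8. RBBP4, the histone-binding protein that completes CAF-1 and also serves other chromatin complexes, averaged 89.4 ± 26.1 in bloom and 120 ± 11.5 in non-bloom dolphins (log2 change -0.49, SE 0.18, limma adjusted p = 0.0799).

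SUPT16H encodes the large subunit of FACT, which holds H2A and H2B while a nucleosome is opened (ENSTTRG00000016068, GeneScaffold_2582 from 177597 to 210317). It ran from 69.9 through 101 to 135 in bloom dolphins, against 128 through 145 to 170 in non-bloom dolphins. The means were 101 ± 19.5 (SD, n = 9) and 150 ± 15.4 (SD, n = 8), a log2 change of -0.58 (SE 0.12). Here too 8 of 9 bloom dolphins lay below every non-bloom dolphin, and the exception was again bloom 1. The change was -0.43 (SE 0.10) without bloom 5, 6 and 9 and passed, again in libraries that chose the gene. It did not pass without non-bloom 2, 6 or 8, where the log2 changes were -0.56, -0.59 and -0.56. Those fits called 61, 93 and 66 genes in all, against 1241 with all 17 libraries.

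SSRP1, the partner of SUPT16H in FACT, did not pass. It ran from 121 through 156 to 208 in bloom dolphins and from 166 through 168 to 179 in non-bloom dolphins, a log2 change of -0.14 (SE 0.11). Its non-bloom values lay close together, with an SD of 2.94% of the mean, against 17.8% in bloom dolphins, where 6 libraries were below the whole non-bloom range and 2 above it. The reads of SUPT16H per read of SSRP1 came to 0.667 ± 0.183 in bloom (SD, n = 9) and 0.881 ± 0.101 in non-bloom dolphins (SD, n = 8). This ratio does not depend on how libraries were scaled. It was below every non-bloom library in 7 of 9 bloom libraries and lowest in bloom 9, at 0.429. Because SUPT16H and CHAF1A chose the family by their low bloom values, season differences of ratios built on them are no independent evidence. The same holds for CHAF1A to CHAF1B and SUPT16H to SUPT6H, and ratios of other gene pairs were not examined for comparison.

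SUPT6H encodes SPT6, which rides with the polymerase and reassembles H3 and H4 behind it. It ran from 156 through 198 to 391 in bloom dolphins and from 154 through 188 to 201 in non-bloom dolphins, with a log2 change of 0.20 (SE 0.15) that did not pass. The value of 391 was that of bloom 9; the next highest was 239, and without bloom 5, 6 and 9 the log2 change was 0.021 (SE 0.097). Each library held 0.504 ± 0.168 SUPT16H reads per SUPT6H read in bloom (SD, n = 9) and 0.831 ± 0.140 in non-bloom dolphins (SD, n = 8). The ratio ran from 0.228 to 0.728 in bloom and from 0.649 to 1.11 in non-bloom dolphins, so the groups overlapped between 0.649 and 0.728.

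**Figure D2:**
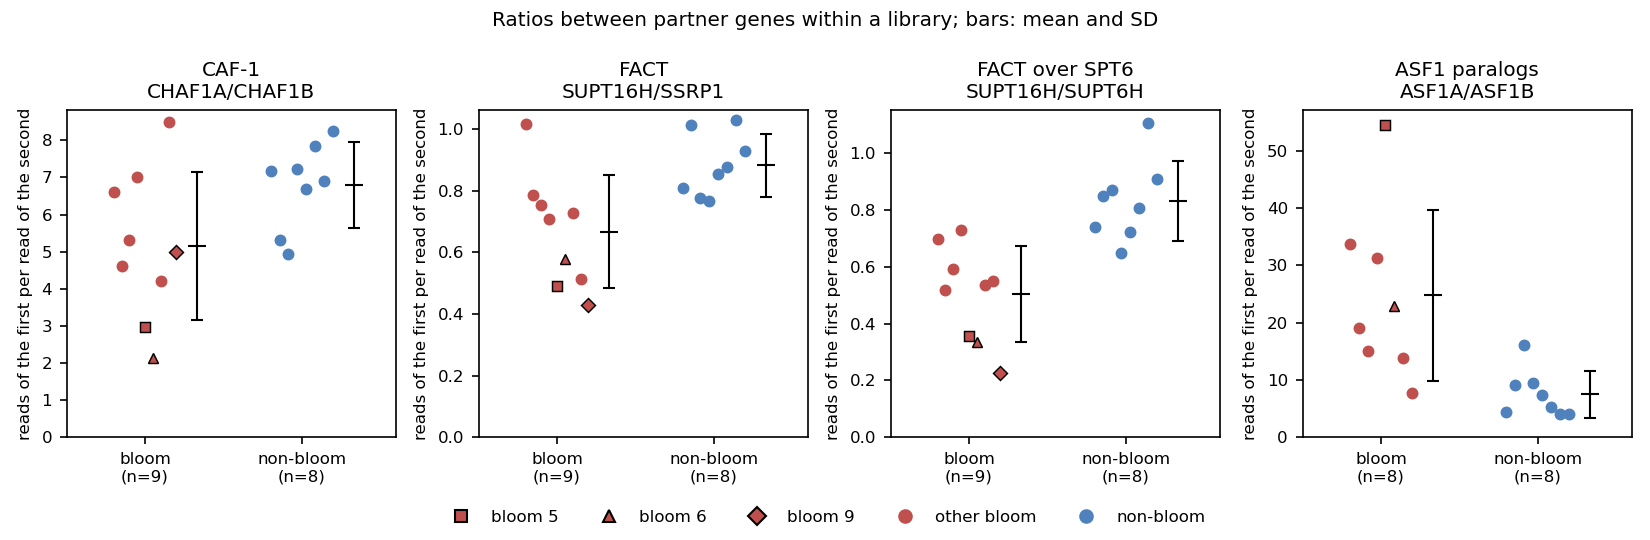
Reads of one gene per read of another within each library (vertical axes, from 0), for bloom and non-bloom dolphins, with group mean and SD. The ratio of SUPT16H to SSRP1 averaged 0.667 in bloom and 0.881 in non-bloom libraries, and that of ASF1A to ASF1B averaged 24.8 and 7.46, without bloom 9, which had no ASF1B read. The ASF1A to ASF1B ratios rest on 14 or fewer ASF1B reads in each bloom library.

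The ASF1 paralogs, which hand H3 and H4 on to CAF-1 and HIRA, stood on opposite sides of zero. ASF1B, the form tied to proliferating cells in humans, ran from 0 through 0.726 to 0.969 in bloom dolphins, against 0.737 through 1.34 to 1.67 in non-bloom dolphins. It was counted on 0 to 14 reads per bloom library and 12 to 28 reads per non-bloom library, and its log2 change of -0.53 (SE 0.16) is understated on this scale for so low a gene. All 9 bloom values lay below the non-bloom median. The 0 of bloom 9 carries little weight, since 3 reads would have been a value of 1.71 there. The call of ASF1B was the least secure of the 3: it was kept without non-bloom 3 or bloom 1, 4, 8 or 9 and lost without any of the other 12 libraries, without bloom 5, 6 and 9 together (log2 change -0.45, SE 0.15), with a pseudocount of 0.1 and by edgeR.

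ASF1A, the other paralog, ran from 7.11 through 13.0 to 22.2 in bloom dolphins, against 5.26 through 8.80 to 11.9 in non-bloom dolphins. The means were 14.0 ± 5.06 (SD, n = 9) and 8.51 ± 2.22 (SD, n = 8), and the log2 change of 0.62 (SE 0.21) did not pass. The 2 highest values, 22.2 and 21.7, were those of bloom 6 and bloom 5, and without bloom 5, 6 and 9 the log2 change was 0.36 (SE 0.18). A library held 24.8 ± 14.9 ASF1A reads per ASF1B read in bloom (SD, n = 8, bloom 9 having no ASF1B read) and 7.46 ± 4.13 in non-bloom dolphins (SD, n = 8). The ratio ran from 7.71 to 54.5 in bloom and from 4.00 to 16.1 in non-bloom dolphins. The bloom ratios rest on few ASF1B reads, and the highest, 54.5 in bloom 5, on 2 of them.

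NASP, which shields soluble H3 and H4 from degradation, ran from 24.9 through 27.8 to 45.1 in bloom dolphins, against 17.9 through 22.5 to 28.3 in non-bloom dolphins. All 9 bloom values lay above the non-bloom median, and 5 of 8 non-bloom values lay below every bloom value. The log2 change was 0.42 (SE 0.14) and did not pass; without bloom 5, 6 and 9 it was 0.26 (SE 0.11). ASF1A and NASP passed without bloom 1, bloom 4 or bloom 8, fits in which 2316 to 2895 genes passed. DESeq2 on the recovered reads called both higher, in a fit that called 14.4% of all genes higher, and edgeR, which called 6.07% higher, called neither.

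HIRA, the chaperone of the replacement histone, ran from 53.4 through 62.2 to 85.0 in bloom dolphins and from 52.6 through 55.4 to 63.4 in non-bloom dolphins. Its log2 change was 0.16 (SE 0.10) and did not pass. NAP1L1 ran from 214 through 230 to 437 in bloom dolphins and from 207 through 271 to 307 in non-bloom dolphins. Its highest values, 437, 374 and 353, were those of bloom 5, bloom 9 and bloom 6, while the other 6 bloom dolphins lay between 214 and 236. The log2 change of 0.04 (SE 0.16) had no stable direction: it was -0.23 (SE 0.10) without those 3 libraries.

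**Figure D3:**
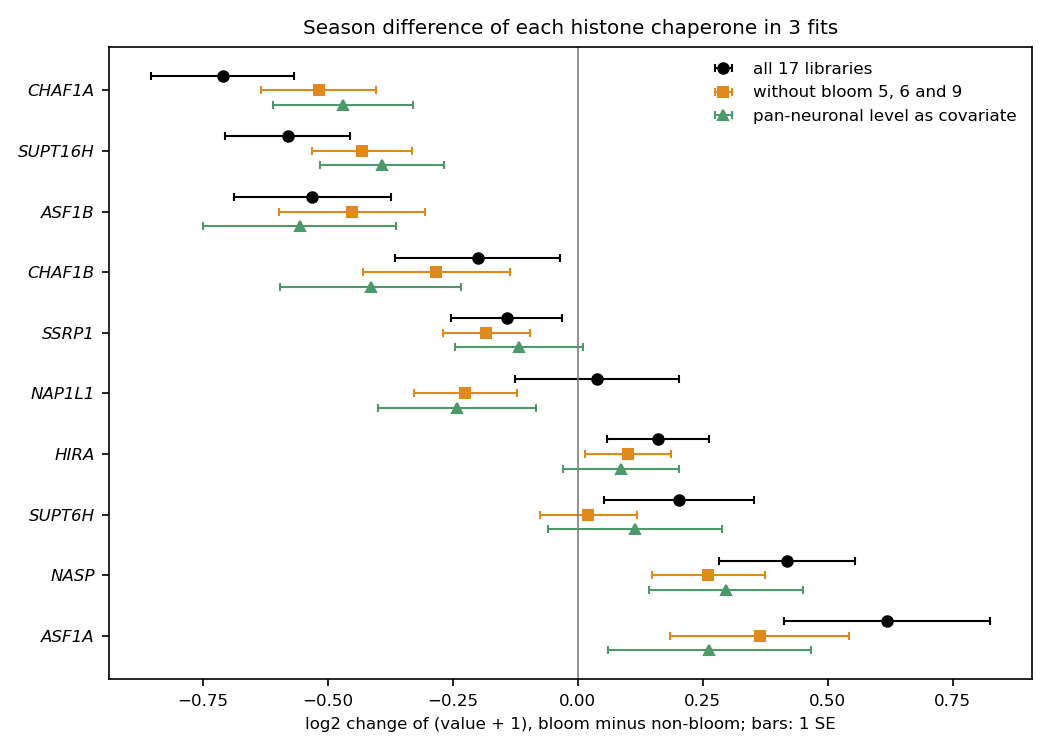
Log2 change of each histone chaperone, bloom minus non-bloom (horizontal axis, bars of 1 SE), with all 17 libraries, without bloom 5, 6 and 9, and with a covariate for pan-neuronal markers. Every member but NAP1L1 keeps its sign in all 3 fits. CHAF1A is at -0.71, -0.52 and -0.47 and SUPT16H at -0.58, -0.43 and -0.39, and neither passes with the covariate.

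The levels of cell type markers were set beside the members. SYT1, the calcium sensor of vesicle fusion in neurons, averaged 396 ± 235 (SD, n = 9) in bloom and 902 ± 149 (SD, n = 8) in non-bloom dolphins and fell in the bloom season (log2 change -1.52, SE 0.40, limma adjusted p = 0.0365). The membrane fusion protein SNAP25 averaged 2203 ± 773 and 3302 ± 682 and did not pass (log2 change -0.67, SE 0.27, limma adjusted p = 0.0908). The marker lists were not tested as lists. The summed pan-neuronal level, which overlapped between the groups, was lowest in bloom 5 and bloom 6, at 2526 and 3726, the libraries with the highest ASF1A and among the 3 lowest in CHAF1A and SUPT16H. Bloom 9, with the lowest CHAF1A of all, had a pan-neuronal sum of 7751, near the bloom median of 8016. By the sums of the excitatory neuron, interneuron, astrocyte and oligodendrocyte markers it stood with bloom 5 and bloom 6. These 3 libraries had the lowest sums of 10 excitatory neuron markers, 1419, 538 and 547 in bloom 9, 5 and 6. Any other library had at least 2436. They also had the lowest sums of 8 interneuron markers and the highest sums of the astrocyte and oligodendrocyte markers. The sum of endothelial markers was 164 in bloom 9, against 2031 and 2348 in bloom 5 and 6. By mean log2 level the glial order did not hold. The oligodendrocyte mean was 7.41 in bloom 5 and 7.94 in bloom 9, against 8.42 in non-bloom 5. The astrocyte mean was 7.43 in bloom 9, against 8.60 in bloom 2. The part of cell makeup in the members' differences was not tested beyond a covariate fit on the pan-neuronal markers. No other marker list was used as a covariate. With the mean log2 level of these markers as a covariate, the season term was -0.47 (SE 0.14) for CHAF1A, -0.39 (SE 0.12) for SUPT16H, -0.56 (SE 0.19) for ASF1B, 0.26 (SE 0.20) for ASF1A and 0.30 (SE 0.15) for NASP. None of the 10 members passed in that fit, which called 0.0221% of all genes. With the ratio of mitochondrial to other reads as a covariate 5 members passed, CHAF1A, SUPT16H and ASF1B lower and ASF1A and NASP higher, in a fit that called 18.6% of all genes.

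**Figure D4:**
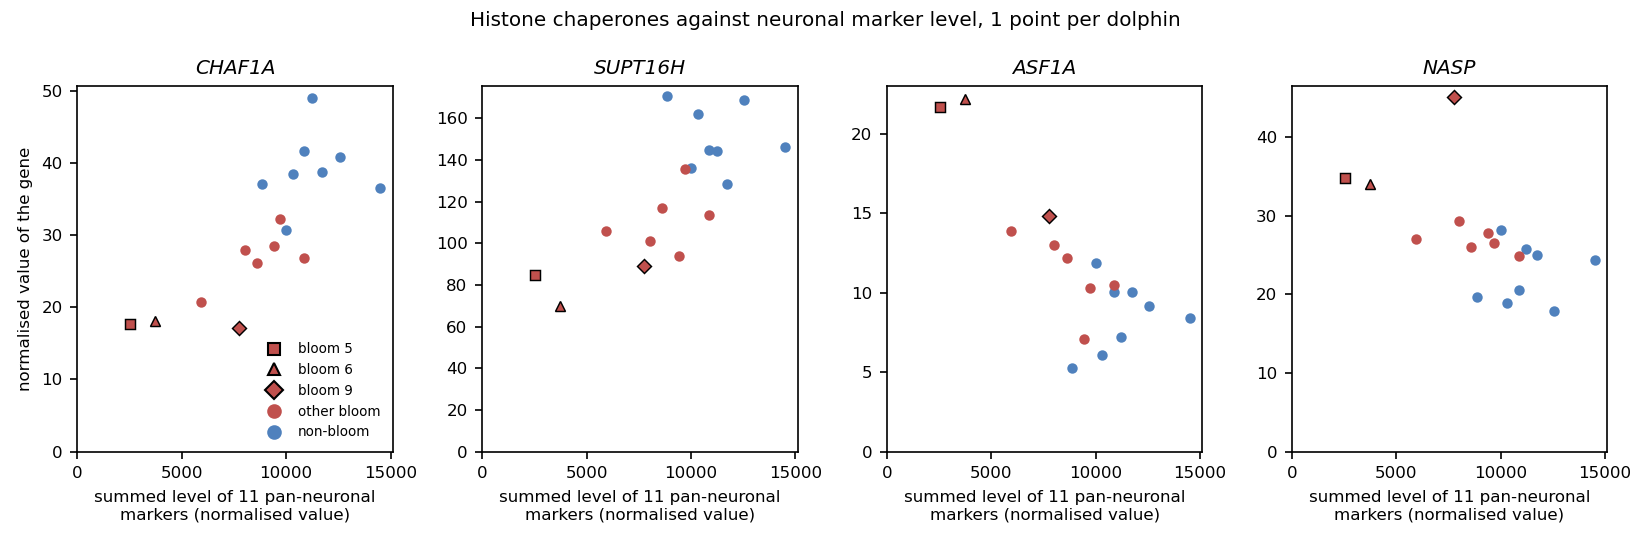
Normalised value of CHAF1A, SUPT16H, ASF1A and NASP (vertical axes, from 0) against the summed level of 11 pan-neuronal markers (horizontal axis), 1 point per dolphin. Bloom 5 and bloom 6 have the lowest marker sums, 2526 and 3726, with low CHAF1A and SUPT16H and high ASF1A; bloom 9 has a CHAF1A of 17.1 at a pan-neuronal sum of 7751, while its sum of excitatory neuron markers, not plotted, is the third lowest at 1419.

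How the members varied among dolphins of 1 season was looked at in the non-bloom group, since a correlation within 1 season does not use the difference between seasons. Of 45 pairs none was correlated after adjustment. SUPT16H and NASP came closest, with r = -0.85 (exact permutation test over 40320 pairings, two-sided, p = 0.0113, adjusted p = 0.508 over 45 pairs) and rho = -0.83 (exact permutation p = 0.0154, adjusted p = 0.516, n = 8). Without the 2 dolphins farthest from the median of SUPT16H r was -0.74, and over the 6 bloom dolphins other than bloom 5, 6 and 9 it was -0.56. By r, 1 other pair had p under 0.05 before adjustment, CHAF1A and SUPT6H. Its r was 0.71 (exact permutation p = 0.0411, adjusted p = 0.568), but -0.315 over the same 6 bloom dolphins. CHAF1A and SUPT16H, the members with the smallest p, had a lower r when bloom 5, 6 and 9 were left out. Centred within season, their log2 levels had r = 0.63 over all 17 libraries and 0.40 without bloom 5, 6 and 9. The r was 0.77 among the bloom dolphins and 0.13 among the 8 non-bloom dolphins. The differences between these r values were not tested.

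The genes most like CHAF1A across the 17 libraries, after centring log2 levels within each season, were MAGEE2, the RNA helicase DDX24 and CXORF57, with r of 0.87, 0.87 and 0.86, or 0.75, 0.78 and 0.73 over the 14 libraries other than bloom 5, 6 and 9. Those most like SUPT16H were AKAP9, a scaffold of protein kinase A, the DNA repair nuclease subunit ERCC4 and ADAM22, a synaptic receptor, with r of 0.92, 0.91 and 0.88, or 0.92, 0.88 and 0.79 over the same 14. These are the highest of 13552 genes by construction.

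Few genes that work beside the chaperones changed: of 133 tested on 5 lists 3 rose and 2 fell, or 3.76%, beside 9.16% of all genes tested. The difference between these shares was not tested. Of 40 other histone chaperones and partners 36 were tested and 1 fell, NAP1L5, a relative of NAP1L1, at 83.6 ± 31.0 in bloom (SD, n = 9) and 134 ± 23.2 in non-bloom dolphins (SD, n = 8; log2 change -0.75, SE 0.22, limma adjusted p = 0.0444). Its call was lost in 11 of the 17 fits with 1 library left out and held without non-bloom 5 or bloom 1, 3, 4, 8 or 9, and it was lost without bloom 5, 6 and 9 together (log2 change -0.50). The median log2 change of this list was -0.10, and 3 genes had positive and 9 negative changes at p under 0.05 before adjustment, beside 16.4% positive and 19.0% negative over all genes tested. edgeR called 1 gene of the list higher, ANP32B (edgeR adjusted p = 0.0406), and 1 lower. ANP32B averaged 191 ± 111 in bloom and 93.6 ± 23.55 in non-bloom dolphins and did not pass by limma (log2 change 0.88, SE 0.28, limma adjusted p = 0.0519). Its log2 change was 0.39 without bloom 5, 6 and 9.

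Of 34 tested genes of the replication fork and S phase 1 fell and 1 rose. CDT1, which licenses replication origins, averaged 0.938 ± 0.661 in bloom (SD, n = 9) and 2.54 ± 0.669 in non-bloom dolphins (SD, n = 8; log2 change -0.94, SE 0.22, limma adjusted p = 0.0292); it failed the threshold without bloom 2 or non-bloom 2, 6, 7 or 8. CDT1 values ran from 0 to 1.84 in bloom dolphins. A value of 3 reads was 0.597 in bloom 5 and 1.71 in bloom 9, so CDT1 lies near the floor there. MCM7, a subunit of the replicative helicase, averaged 98.7 ± 41.8 and 57.7 ± 19.9 (log2 change 0.74, SE 0.23, limma adjusted p = 0.0498), and its call held only without non-bloom 4 or bloom 1, 4 or 8. MCM7 was not called by edgeR, nor without bloom 5, 6 and 9 together (log2 change 0.44). The 1 gene of this list that edgeR called higher was CDC45 (edgeR adjusted p = 0.0332). CDC45 averaged 13.4 ± 11.9 in bloom and 4.25 ± 0.783 in non-bloom dolphins. By limma it did not pass (log2 change 1.075, SE 0.37, limma adjusted p = 0.0614), and without bloom 5, 6 and 9 the log2 change was 0.67. The list's median log2 change was -0.04. Over the 5 lists together 67 of 133 tested genes had negative changes, beside 6815 of 13552 genes in all. By list these were 21 of 36 among the other chaperones, 21 of 34 of the replication list and 13 of 30 among the remodellers. They were 12 of 31 among the elongation factors and 4 of 7 among the histone genes. The lists overlap: the other chaperones share MCM2 with the replication list and ATRX with the remodellers. They share SUPT5H, SUPT4H1 and IWS1 with the elongation factors.

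Among 30 chromatin remodellers 2 rose. CHD7, a chromodomain helicase, averaged 34.3 ± 10.7 in bloom (SD, n = 9) and 15.6 ± 4.28 in non-bloom dolphins (SD, n = 8; log2 change 1.07, SE 0.20, limma adjusted p = 0.0133), and it passed whichever library was left out and without bloom 5, 6 and 9 together. BAZ2B, a bromodomain protein, averaged 47.4 ± 17.8 and 24.5 ± 6.26 (log2 change 0.87, SE 0.21, limma adjusted p = 0.0309), and it failed the threshold without bloom 2, 5 or 6 or non-bloom 1, 2, 6 or 8. Leaving out bloom 5, 6 and 9 also ended the call (log2 change 0.60). The list's median log2 change was 0.04.

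None of 31 transcription elongation factors passed by limma or edgeR; before adjustment 4 had a positive and 3 a negative change at p under 0.05 (16.4% and 19.0% over all genes), and DESeq2 called 3 higher and 1 lower (14.4% and 9.05% over all genes). RNF40, a ubiquitin ligase for H2B, had the smallest p and averaged 107 ± 11.7 in bloom (SD, n = 9) and 128 ± 11.1 in non-bloom dolphins (SD, n = 8; log2 change -0.26, SE 0.10, limma adjusted p = 0.0769). SUPT4H1, a partner of SUPT5H in the elongation factor DSIF, averaged 15.9 ± 3.77 and 20.2 ± 2.03 (limma adjusted p = 0.0774). None of 7 tested histone genes, of 14 listed, passed by limma, edgeR or DESeq2, and 0 had an unadjusted p under 0.05. H2AFV, a variant of H2A, averaged 34.3 ± 11.8 in bloom and 26.0 ± 4.45 in non-bloom dolphins (log2 change 0.34, SE 0.17, limma adjusted p = 0.165), and HIST3H2BB 2.36 ± 0.845 and 1.67 ± 0.371 (limma adjusted p = 0.169).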

How the data were processed

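Messenger RNA libraries of frozen cortex (600 ng of RNA, 14 cycles of PCR, per the labels' protocols) were read from 17 deposited files, 1 per dolphin. Trim Galore (0.6.1) and the aligner STAR (2.5.2a) appear in the submitters' processing notes. The counting tool, its treatment of strand and shared reads, and the build were not given in the sources used here. For each gene the authors deposited 1 normalised signal. Every nonzero value was a whole multiple of 1 read's value (100% within 0.01), and the library sizes equalled edgeR's TMM-scaled ones. Genes were kept by filterByExpr (minimum count 10, minimum total 15). limma-trend was fitted with season alone on log2(value + 1). A p under 0.05 after Benjamini-Hochberg adjustment passed. Alternatives were edgeR and DESeq2 on recovered reads, another scaling, pseudocount and filter, 2 covariates and left-out libraries. A value of 3 reads was 0.158 to 1.71 by library. The p-values of the fits set the season difference against the spread between dolphins. No library matched another within sampling noise (lowest chi-square 17.6 per gene). R 4.3.3, limma 3.58.1, edgeR 4.0.16 and DESeq2 1.42.0 were used, and the fits were tested on simulated data. Members and gene lists were chosen with earlier results of these data known. Named genes are all members, up to 3 passing genes per direction and list by p (the top 2 where none passed), the 3 genes most like CHAF1A and SUPT16H, RBBP4, SYT1, SNAP25 and MKI67. CDC45 and ANP32B were added as genes of the lists that edgeR called and limma did not.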

Additional observations from a re-analysis of the deposited data

Results flagged for a closer look

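In 26 groups of values examined, 20 of the members' levels and 6 of ratios within a library, 2 values stood far from the rest of their group. Chance gives about 1 such group in 20, so 26 groups would give some flags by chance alone. Both were in bloom 9, the library with the highest mitochondrial share. SUPT6H was 391 there, and the nearest of the other 8 bloom dolphins had 239. NASP was 45.1 there, and the nearest had 34.8.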

How the results depend on the processing

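Over 13552 genes 1241 passed; 560 passed with no filter on low values, 3173 by DESeq2, 3 with the pan-neuronal covariate, 2518 with the mitochondrial covariate and 320 without bloom 5, 6 and 9. Of the members 3 passed; 5 did by DESeq2, 0 with the pan-neuronal and 5 with the mitochondrial covariate. Of the other chromatin genes 5 passed; 3 did with no filter, 3 with a pseudocount of 0.1, 16 by DESeq2, 0 and 11 with these covariates and 2 without bloom 5, 6 and 9. With 1 library left out the counts ran from 61 to 2895, 0 to 5 and 1 to 16. The fewest genes passed without non-bloom 2, 8 or 6 (61, 66 and 93). The share of calls that were higher was 48.8%, and 70.4% by edgeR, 61.3% by DESeq2, 71.9% without bloom 5, 6 and 9, 59.3% with no filter, and 41.4% (without bloom 4) to 88.5% (without non-bloom 2; 87.1% without non-bloom 6) with 1 library left out. The log2 change of NAP1L1, 0.04, became -0.24 and -0.043 with these covariates and -0.23 without bloom 5, 6 and 9, and it ran from -0.0497 to 0.0791 with 1 library left out, negative without non-bloom 8 or bloom 5, 6 or 9; the cause was not tested. The other 9 members kept their direction under every alternative run. No paired analysis was possible because each dolphin was sampled in 1 season only and the labels carry no shared numbers. Depth limits ASF1B most, at 28 reads or fewer in every library.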
